A study of Mus musculus with 6 samples.

Results

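The 10 genes described here encode the angiotensin precursor *Agt*, the angiotensin-converting enzyme *Ace* and the angiotensin II receptor *Agtr1a*, the endothelin precursor *Edn1*, the endothelin-converting enzyme *Ece1* and the endothelin receptors *Ednra* and *Ednrb*, and the natriuretic peptide receptors *Npr1*, *Npr2* and *Npr3*. They were chosen by name for their place in these 3 hormone systems, and all 10 are among the 28987 genes of the expression table. The RNA-seq libraries came from EGFP+ cells of mouse ventricles, sorted 4 weeks after the aorta had been narrowed by surgery (transverse aortic constriction, TAC) to raise the pressure load on the heart. Mice of both groups carried a tamoxifen-activated Cre recombinase (MerCreMer) in the *Postn* locus and the Cre-dependent EGFP reporter in the *Rosa26* locus, received tamoxifen (injected at 100 mg/kg and fed in chow at 40 mg/kg, per the labels), and underwent TAC at 8 to 10 weeks of age, and per the methods were males of the C57BL/6 background. The Hsp47-deleted mice (3 libraries) also carried *Hsp47* flox/flox, and the controls (3 libraries) carried no floxed *Hsp47* allele in their labels. Both the reporter and the deletion depend on Cre from the *Postn* locus, so only cells that had used that locus were marked. By their titles the libraries were sequenced in different runs: control replicates 3 and 4 belong to a first run, whereas the third control library (replicate 2) was sequenced in a second run together with the 3 Hsp47-deleted libraries.

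The 3 systems act on cardiac fibroblasts from different sides. Angiotensin II, cut from the *Agt* product by renin and then by the enzyme that *Ace* encodes, and endothelin-1, cut from the *Edn1* product by the enzyme that *Ece1* encodes, signal through receptors coupled to Gq proteins and are known to promote fibroblast activation and matrix production. Natriuretic peptides oppose them: the receptors encoded by *Npr1* and *Npr2* are guanylyl cyclases that raise cGMP in the cell, and the receptor encoded by *Npr3* mainly clears the peptides. Endothelial cells are the best known source of endothelin-1 and of membrane-bound ACE, and injured myocardium is known to make ACE in fibroblasts as well.

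Values are log2(value + 1) as deposited. The linear unit behind them is not named, so the read depth is unknown and levels were compared between libraries for 1 gene, not between genes. Groups were compared with limma, in which a gene was called at a Benjamini-Hochberg (BH) adjusted p under 0.05 over the 15109 genes with a linear mean of at least 1. Of the 10 genes 8 passed this filter, and *Agt* and *Npr3* did not. The labels do not say whether each library came from a single mouse, so p-values measure the spread between these libraries. Over the tested genes, control replicate 2 resembled the libraries labelled Hsp47-deleted (r from 0.872 to 0.936) more than control replicates 3 and 4 (r of 0.827 and 0.761), as a description across genes that share these libraries. The difference from control replicate 2 alone is therefore given beside the pooled differences, without a test. Both first-run libraries are controls, so a limma fit with sequencing run as a covariate estimates this same difference. Its p-values rest on control replicate 2 as the only control for the difference, so that fit is not a separate check. Taken over all tested genes, the log2 fold changes had a median of 0.35, and -0.060 once each library was centred on its median. The targeted gene, listed as *Serpinh1*, had log2 values between 6.10 and 7.60 in the controls, the highest in replicate 2, and between 6.66 and 6.87 in the libraries labelled Hsp47-deleted, a difference of 0.072 in the pooled comparison and of -0.87 from control replicate 2. The pooled comparison thus did not show a lower level, but its limma interval, from -0.91 to 1.06, is too wide to check the label. Against control replicate 2 the level was lower, in the direction of the label, which rests on a single control library. By Western blot the paper reports efficient loss of Hsp47 protein from sorted EGFP+ cells of Hsp47-deleted mice. Groups and directions below are those of the libraries labelled Hsp47-deleted. Of the fibroblast markers 12 of 12 were tested, with *Dcn* the highest of them. Their linear values summed to between 9843 and 13121 in the controls and between 15277 and 16975 in the libraries labelled Hsp47-deleted. All 12 endothelial markers were tested too, so passing the filter does not tell these cell types apart.

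*Edn1* and *Ace* were the genes of the 8 tested with the smallest limma p. Without a filter on low values *Ece1* had a smaller limma p than *Edn1* (0.0038 against 0.014). The upstream sequences of *Edn1* and *Ace* are shown because of their rank among the tested genes, although neither was called. Each is the stretch before the RefSeq start, 5′ to 3′ on the gene's strand in GRCm38. The *Edn1* stretch is chr13:42301226-42301475 (plus strand, 250 bases) and the *Ace* stretch is chr11:105967698-105967944 (plus strand, 247 bases, 3 bases shorter because the window ran into an annotated exon of *Ace*). Capitals mark a GC box (GGGCGG) or a TATA box (TATAAA) on either strand.
Edn1: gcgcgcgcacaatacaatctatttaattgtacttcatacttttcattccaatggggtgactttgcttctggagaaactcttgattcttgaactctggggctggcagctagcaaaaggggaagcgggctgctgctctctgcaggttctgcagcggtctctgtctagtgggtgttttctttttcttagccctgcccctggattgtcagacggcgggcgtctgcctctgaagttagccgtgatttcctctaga
Ace: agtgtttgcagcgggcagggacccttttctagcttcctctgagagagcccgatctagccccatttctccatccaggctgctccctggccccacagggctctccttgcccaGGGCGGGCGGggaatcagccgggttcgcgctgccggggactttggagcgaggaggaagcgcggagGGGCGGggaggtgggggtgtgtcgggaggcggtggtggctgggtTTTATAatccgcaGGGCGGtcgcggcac
In the *Ace* stretch the GC box occurred 4 times, with 2 of the matches overlapping, at 140 to 135, 136 to 131, 75 to 70 and 18 to 13 bases before the start, and a TATA box lay on the other strand from 31 to 26 bases before it. None of 5 motifs searched on both strands, the GC box, the TATA box, TGANTCA for AP-1, AGATAA for GATA factors and CAGACA for SMAD proteins, was present in the *Edn1* stretch. Of 32851 RefSeq windows of 250 bases in the mouse genome, 32.7% held the GC box, 12.4% the TATA box, 6.75% the AP-1, 9.99% the GATA and 17.1% the SMAD letters. A match is a match of letters and not a bound site. Promoter windows were at hand for 9 of the 10 genes, and *Agtr1a* had none.

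None of the 8 tested genes was called, against 37 of all 15109 tested genes (0.245%). At an unadjusted limma p under 0.05, 2 of the 8 (*Edn1* and *Ace*) had higher values in the group labelled Hsp47-deleted, where 14.5% of all tested genes were, and 0 were lower, where 0.755% were. Every library labelled Hsp47-deleted was above every control for 3 of the 8 (*Edn1*, *Ace* and *Ece1*), against 18.3% of all tested genes, and below every control for 0 of the 8, against 1.5%. Without control replicate 2, 3 of the 8 were called, all higher (*Edn1*, *Ace* and *Npr2*), where 16.4% of all tested genes were, and run and label cannot be told apart in that comparison. The median log2 fold change of the 8 was 0.54 beside the 0.35 of all tested genes. With so few genes these counts do not set the 8 apart from all tested genes. As deposited, the 3 without overlap were the endothelin precursor and both converting enzymes, while the 5 tested receptors (*Agtr1a*, *Ednra*, *Ednrb*, *Npr1* and *Npr2*) overlapped between the groups. The untested receptor *Npr3* lay below every control. With each library centred on its median, *Agtr1a* and *Ednra* did so as well, so this order depends on the scaling.

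**Figure D1:**
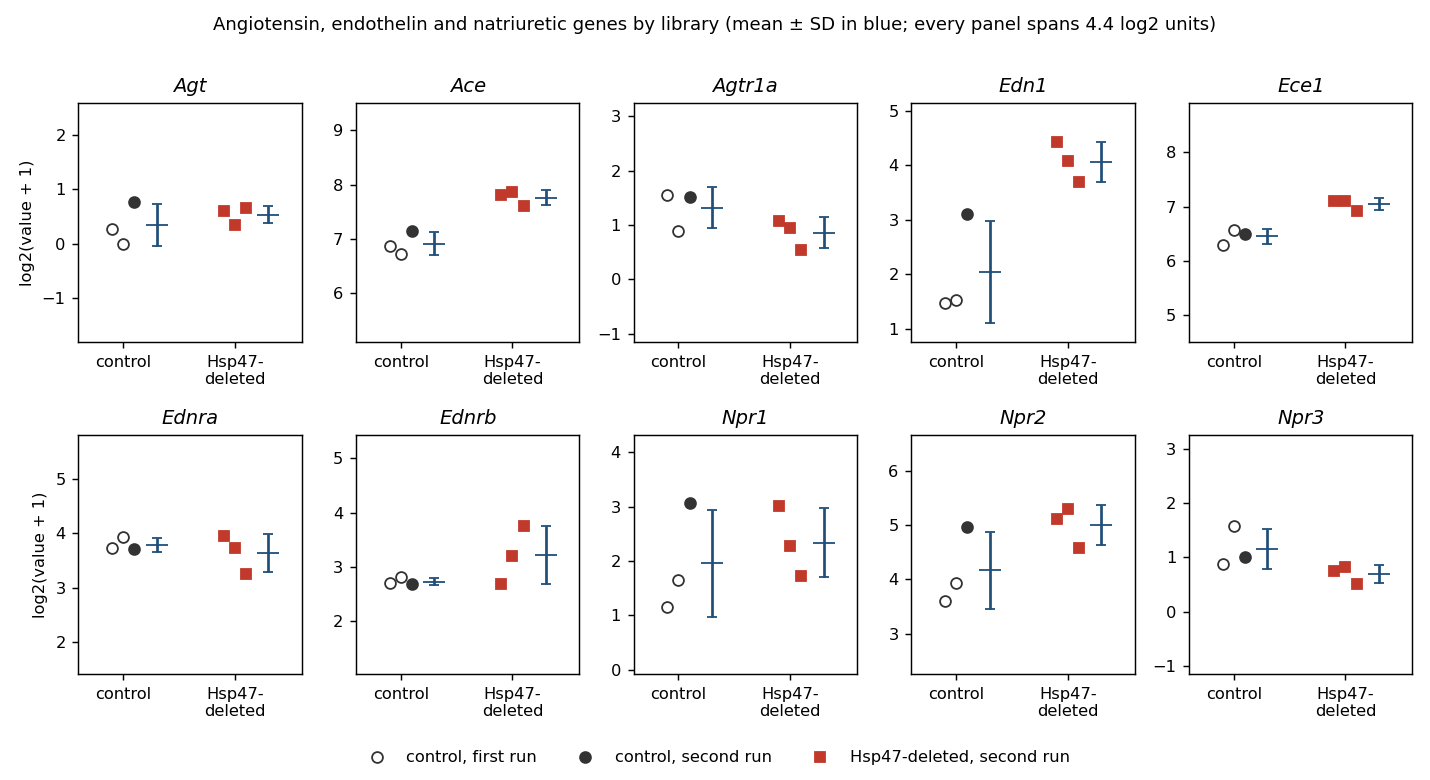
Log2(value + 1) of the 10 genes in each library, with control libraries as circles (open for the first run, filled for the second) and libraries labelled Hsp47-deleted as red squares, beside the mean ± SD of each group (n = 3). *Edn1*, *Ace* and *Ece1* have all red squares above all circles, and for *Edn1*, *Npr1* and *Npr2* the filled circle of control replicate 2 sits far above the open ones.

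*Agt* (ENSMUSG00000031980, chromosome 8 from 124556534 to 124569706, minus strand, GRCm38) encodes angiotensinogen, the precursor of all angiotensins. Its log2 value was 0.27 in control replicate 3, 0.00 in replicate 4 and 0.77 in replicate 2, and 0.60, 0.35 and 0.65 in replicates 1, 2 and 3 labelled Hsp47-deleted. The groups overlapped, with the highest value in a control, and all 6 linear values were under 1. Without a filter on low values the log2 fold change was 0.19 (limma, adjusted p = 0.850), and the difference from control replicate 2 was -0.24. The sign also turned with centring (-0.23), and the difference was 0.014 without control replicate 4 and 0.89 with a pseudocount of 0.1. At values this close to 0 no difference could be shown.

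*Edn1* (ENSMUSG00000021367, chromosome 13 from 42301476 to 42307990, plus strand, 5 exons) encodes the precursor of endothelin-1, a peptide that constricts vessels and stimulates fibroblasts. It read 1.46 and 1.53 in control replicates 3 and 4, 3.12 in control replicate 2, and 4.43, 4.08 and 3.69 in replicates 1, 2 and 3 labelled Hsp47-deleted. On the linear scale this was 1.76, 1.90 and 7.67 against 20.6, 15.9 and 11.9. Each library labelled Hsp47-deleted exceeded each control, and control replicate 2 lay between the first-run controls and the lowest of them. The log2 fold change was 2.03 (95% interval from 0.87 to 3.18, limma), a 4.08-fold difference on the value + 1 scale, with an adjusted p = 0.226. From control replicate 2 alone the difference was 0.95, and control replicate 2 itself was 1.62 above the mean of the first-run controls. With sequencing run as a covariate the log2 fold change was 0.95 (from -0.030 to 1.93, limma, adjusted p = 0.732). In these bulk libraries, a different share of *Edn1*-expressing cells and a different amount of its RNA per cell cannot be told apart.

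*Ace* (ENSMUSG00000020681, chromosome 11 from 105967945 to 105989964, plus strand, up to 25 exons) encodes the membrane-bound peptidase that turns angiotensin I into angiotensin II and breaks down bradykinin. Control replicates 3, 4 and 2 held 6.88, 6.73 and 7.14, and Hsp47-deleted replicates 1, 2 and 3 held 7.80, 7.87 and 7.61. The groups did not overlap, and the gap between the highest control and the lowest library labelled Hsp47-deleted was larger than the whole range of the controls. *Ace* had a log2 fold change of 0.84 (from 0.20 to 1.48, limma, adjusted p = 0.283), and the difference from control replicate 2 was 0.62. In linear values the controls ran from 105 to 140 and the libraries labelled Hsp47-deleted from 194 to 233.

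*Ece1* (ENSMUSG00000057530, chromosome 4 from 137862237 to 137965229, plus strand) encodes the metalloprotease that cuts big endothelin-1 to its active form. It was 6.30, 6.57 and 6.49 in control replicates 3, 4 and 2, against 7.11, 7.11 and 6.92 in the other group. The groups did not overlap and the spread within each was small, with SDs of 0.14 and 0.11 (n = 3 each). Its log2 fold change was 0.59 (from -0.020 to 1.21, limma, adjusted p = 0.335). Unlike *Edn1*, it differed by nearly as much from control replicate 2 alone, by 0.56, and control replicate 2 was 0.056 above the first-run controls. Its relative *Ece2*, which encodes another endothelin-converting enzyme, was 2.79, 3.10 and 3.14 in the controls and 3.87, 3.65 and 3.53 in the libraries labelled Hsp47-deleted, again without overlap, with a log2 fold change of 0.67 (limma, adjusted p = 0.328) and a difference of 0.54 from control replicate 2.

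*Agtr1a* (ENSMUSG00000049115, chromosome 13 from 30336441 to 30382867, plus strand) encodes the main AT1 receptor of the mouse heart, through which angiotensin II drives its pressor and profibrotic actions. Log2 values were 1.55, 0.88 and 1.52 in control replicates 3, 4 and 2, against 1.08, 0.95 and 0.54 in the libraries labelled Hsp47-deleted. The overlap came from control replicate 4 alone, which lay below 2 of the 3 libraries labelled Hsp47-deleted. This gave a log2 fold change of -0.46 (from -1.29 to 0.37, limma, adjusted p = 0.540), and the difference from control replicate 2 was -0.67. These are low linear values, from 0.453 to 1.92. Its paralog *Agtr1b* was at or under 0.21 in all 6 libraries. A transcript of *Agtr1a* aligned to one of *Agtr1b* over 51.3% of its length at 90.1% identity, so a part of the reads of either could be shared. *Agtr2*, which encodes the AT2 receptor, was between 0.00 and 0.18 in 5 libraries and 1.49 in Hsp47-deleted replicate 3.

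*Ednra* (ENSMUSG00000031616, chromosome 8 from 77663031 to 77724464, minus strand) encodes the ETA receptor, which carries the constrictor and growth-promoting actions of endothelin-1. It read 3.72, 3.93 and 3.70 in control replicates 3, 4 and 2, against 3.95, 3.72 and 3.26 in replicates 1, 2 and 3 labelled Hsp47-deleted. The groups overlapped, and the highest and the lowest of all 6 values were both in libraries labelled Hsp47-deleted. For *Ednra* the log2 fold change was -0.14 (from -0.85 to 0.57, limma, adjusted p = 0.839), and the difference from control replicate 2 was -0.060.

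*Ednrb* (ENSMUSG00000022122, chromosome 14 from 103814625 to 103844402, minus strand) encodes the ETB receptor, which in endothelium releases nitric oxide and clears endothelin-1. The controls were tight at 2.70, 2.81 and 2.68, whereas Hsp47-deleted replicates 1, 2 and 3 spread over 2.69, 3.20 and 3.76. The overlap came from Hsp47-deleted replicate 1, which lay among the controls. The log2 fold change was 0.49 (from -0.34 to 1.31, limma, adjusted p = 0.512), and 0.53 from control replicate 2. *Ednra* and *Ednrb* ran in opposite order over the 3 libraries labelled Hsp47-deleted.

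*Npr1* (ENSMUSG00000027931, chromosome 3 from 90450591 to 90465866, minus strand) encodes the guanylyl cyclase receptor for the atrial and brain natriuretic peptides. Its values were 1.16, 1.65 and 3.06 in control replicates 3, 4 and 2, against 3.00, 2.28 and 1.73 in replicates 1, 2 and 3 labelled Hsp47-deleted. Control replicate 2 was the highest of all 6 libraries, and all 3 libraries labelled Hsp47-deleted lay within the range of the controls. The pooled log2 fold change was 0.38 (from -0.93 to 1.69, limma, adjusted p = 0.761), and the difference from control replicate 2 was -0.72, of the opposite sign. The direction for *Npr1* thus turned with the control library it was set against.

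*Npr2* (ENSMUSG00000028469, chromosome 4 from 43631935 to 43651244, plus strand) encodes the guanylyl cyclase receptor for C-type natriuretic peptide, which is known to restrain fibroblast growth. Control replicates 3 and 4 had 3.60 and 3.94, control replicate 2 had 4.97, and the libraries labelled Hsp47-deleted had 5.11, 5.31 and 4.59. Again control replicate 2 lay among the libraries labelled Hsp47-deleted and apart from the first-run controls, by 1.19. *Npr2* had a log2 fold change of 0.83 (from -0.14 to 1.80, limma, adjusted p = 0.376), against 0.036 from control replicate 2 alone. The predicted gene *Gm12473* lies on the other strand over exons of *Npr2*, and a transcript of *Npr2* aligned to it over 63.0% of its length at 100% identity. *Gm12473* was 0.24, 0.00 and 2.38 in the controls and 2.23, 2.70 and 1.83 in the libraries labelled Hsp47-deleted. The amplification kit named in the labels does not mark strand, so reads from the shared stretch cannot be told apart. *Edn1*, *Ace*, *Ednra*, *Npr1* and *Npr3* also overlap exons of a gene on the other strand, and for them the limit covers the overlapping part. The share of a transcript that aligned to the other gene was 18.3% for *Npr1* and 11.1% for *Npr3*. For *Edn1*, *Ace* and *Ednra* no alignment to another gene was found.

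*Npr3* (ENSMUSG00000022206, chromosome 15 from 11839896 to 11907287, minus strand) encodes the clearance receptor, which takes up all 3 natriuretic peptides. It was 0.88, 1.58 and 1.01 in control replicates 3, 4 and 2, against 0.75, 0.83 and 0.51 in the libraries labelled Hsp47-deleted. All 3 of the latter lay below all controls, by a margin between 0.83 and 0.88 that is small beside the control range of 0.70. Without a filter on low values its log2 fold change was -0.46 (limma, adjusted p = 0.583), and the difference from control replicate 2 was -0.32. Linear values ran from 0.428 to 1.99, so that this order rests on very low levels. The difference was -0.25 without control replicate 4 and -0.88 with centring.

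Within-library ratios, taken as differences of log2(value + 1), were compared for 4 pairs of genes, with p-values BH-adjusted over the 4. Because of the added 1 they depend on the pseudocount where a gene is as low as *Agtr1a* or *Npr3*. The log2 ratio of *Ace* to *Agtr1a*, enzyme against receptor, was 5.34, 5.85 and 5.62 in control replicates 3, 4 and 2, against 6.72, 6.92 and 7.07 in replicates 1, 2 and 3 labelled Hsp47-deleted. The groups did not overlap, with a mean difference of 1.30 and a difference of 1.28 from control replicate 2 alone (two-sided exact permutation test, p = 0.1, which is the smallest that 3 against 3 can give, adjusted p = 0.2). The controls of both runs lay together for this ratio. The mean difference was 1.66 with a pseudocount of 0.1 and 0.98 with 5.

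The log2 ratio of *Npr3* to *Npr2*, clearance against signaling receptor, was -2.72, -2.36 and -3.95 in the controls and -4.36, -4.48 and -4.07 in the libraries labelled Hsp47-deleted. The groups again did not overlap (mean difference -1.29, two-sided exact permutation p = 0.1, adjusted p = 0.2), yet control replicate 2 lay just above the nearest of them and the difference from it was -0.35. With a pseudocount of 0.1 the mean difference was -1.74, and with 5 it was -0.85. The log2 ratio of *Npr1* to *Npr2*, the cyclase receptors against each other, was -2.44, -2.29 and -1.90 against -2.11, -3.02 and -2.86, and Hsp47-deleted replicate 1 lay among the controls (mean difference -0.45, -0.76 from control replicate 2, exact permutation p = 0.3, adjusted p = 0.4). The log2 ratio of *Ednra* to *Ednrb* was 1.02, 1.12 and 1.02 in the controls and 1.25, 0.52 and -0.51 in replicates 1, 2 and 3 labelled Hsp47-deleted. The mean difference of -0.63 was smaller than the SD of 0.88 among the libraries labelled Hsp47-deleted (exact permutation p = 0.4, adjusted p = 0.4), and the difference from control replicate 2 was -0.59. It was -0.16 without Hsp47-deleted replicate 3 and -1.04 without Hsp47-deleted replicate 1. The endothelin receptor balance was thus narrow in the controls and wide, on both sides of them, in the libraries labelled Hsp47-deleted.

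**Figure D2:**
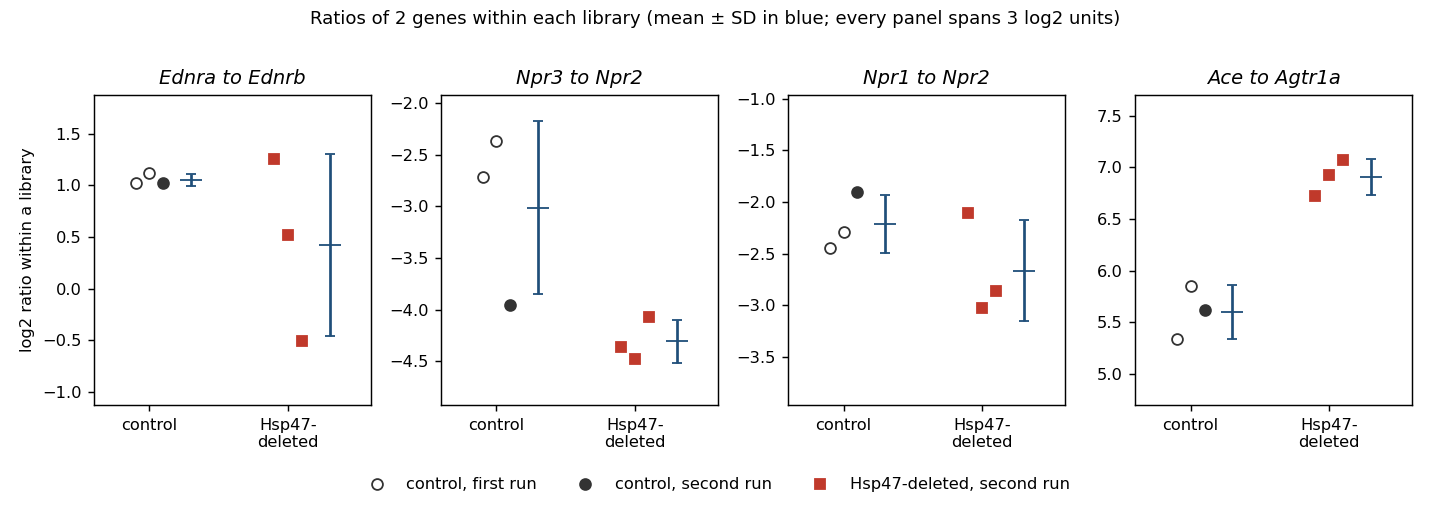
Log2 ratio of 2 genes within each library, with controls as circles (open for the first run, filled for the second), libraries labelled Hsp47-deleted as red squares, and the mean ± SD of each group in blue (n = 3). For *Ace* to *Agtr1a* the 3 red squares, from 6.72 to 7.07, lie above all circles, from 5.34 to 5.85, while for *Npr3* to *Npr2* the filled circle lies beside the red squares.

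The medians of the libraries over the tested genes were on average 0.42 higher in the group labelled Hsp47-deleted, and centring lowers the log2 fold change of each tested gene by that amount. With each library centred on its median, *Edn1* had a log2 fold change of 1.61 (limma, adjusted p = 0.463), *Ace* of 0.43 (adjusted p = 0.631) and *Ece1* of 0.18 (adjusted p = 0.816). These 3 genes stayed without overlap, the libraries labelled Hsp47-deleted being the higher. After centring, 6.54% of all tested genes were above every control, whatever their order before. *Agtr1a* had a centred log2 fold change of -0.88 (limma, adjusted p = 0.590), with control values of 1.96, 1.05 and 1.56 against 0.84, 0.68 and 0.42. *Agtr1a* and *Ednra*, 2 of the 8, were then below every control, against 7.24% of all tested genes. For *Ednra* the separation was between 3.71 and 3.74, with a centred log2 fold change of -0.56 (adjusted p = 0.600). At an unadjusted p under 0.05 after centring, 1 of the 8 was higher (*Edn1*), where 4.73% of all tested genes were, and 1 was lower (*Agtr1a*), where 3.48% were. *Npr1*, *Npr2* and *Ednrb* had centred log2 fold changes of -0.035, 0.42 and 0.072, so that the positive sign of *Npr1* did not hold under centring. Once sequencing run was a covariate, 0 of the 8 passed an unadjusted p under 0.05, against 6.73% of all tested genes in either direction, and 0 were called.

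**Figure D3:**
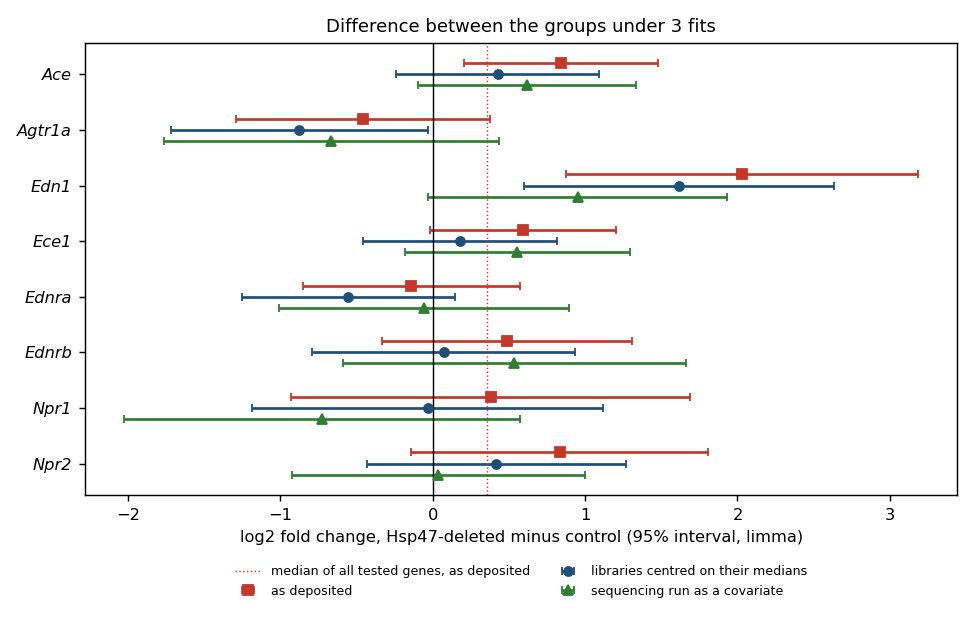
Log2 fold change (libraries labelled Hsp47-deleted minus control) of the 8 tested genes with its 95% limma interval, as deposited (red squares), with libraries centred on their medians (blue circles) and with sequencing run as a covariate (green triangles), and the median of all tested genes as a dotted line at 0.35. *Edn1* is positive under all 3 fits (2.03, 1.61 and 0.95) and *Agtr1a* negative under all 3 (-0.46, -0.88 and -0.67), while *Npr1* changes sign. The green triangles equal the differences from control replicate 2 alone.

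Markers of other cell types were present in the sorted cells, and several lists were high in control replicate 2. The 12 endothelial markers, all tested and none at 0 in all libraries, summed to linear values of 259, 115 and 687 in control replicates 3, 4 and 2, against 649, 515 and 314 in replicates 1, 2 and 3 labelled Hsp47-deleted. Of the 12, 2 had an unadjusted limma p under 0.05, both higher in the libraries labelled Hsp47-deleted, close to the 14.5% of all tested genes, and 0 were called. *Fabp4*, the highest of them, ran 6.55, 3.75 and 8.59 in the controls and 8.48, 8.05 and 6.93 in the other group. Their mean log2 value was 0.84 higher in the libraries labelled Hsp47-deleted than in the controls and 0.33 lower than in control replicate 2 (a difference of -0.33). The 12 cardiomyocyte markers summed to 102, 50.2 and 273 in the controls and to 250, 306 and 188 in the other group, led by *Tnnt2*, and the 5 erythroid genes to 100, 18.5 and 679 against 312, 377 and 173, led by *Hbb-b1*. The 11 leukocyte markers, led by *Cd68*, summed to 39.0, 84.0 and 94.2 against 102, 130 and 106, with *Ptprc*, which encodes the pan-leukocyte antigen CD45, listed at 0 in all 6 libraries. The 5 endocardial markers, led by *Cytl1*, summed to 84.4, 78.6 and 149 in the controls and to 255, 269 and 236 in the other group, without overlap. Their mean log2 value was 0.76 higher in the libraries labelled Hsp47-deleted, and 0.55 higher than in control replicate 2. Of the 4 that were tested, 3 were above every control as deposited and 1, *Cytl1*, after centring (18.3% and 6.54% of all tested genes). One of the 5, *Nfatc1*, is also counted with the Gq genes.

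Since endothelial cells are a known source of endothelin-1, *Edn1* was set against the mean log2 value of the endothelial markers in each library. The difference was -2.05, -1.20 and -1.77 in control replicates 3, 4 and 2, against -0.42, -0.54 and -0.48 in the libraries labelled Hsp47-deleted. The groups did not overlap, by a mean of 1.19, and by 1.29 from control replicate 2, so that *Edn1* was higher relative to this mean whichever control was used. This holds for the mean and not for each marker. As deposited, 1 of the 12, *Cldn5*, was itself above every control (0.47, 0.24 and 3.12 against 3.45, 3.49 and 3.26). Against the mean of the endocardial markers the difference for *Edn1* was -1.23, -1.24 and 0.078 in the controls and 0.90, 0.43 and 0.099 in the other group. The mean difference was then 1.27, and 0.40 from control replicate 2, with control replicate 2 next to Hsp47-deleted replicate 3. *Ace* minus the mean of the endothelial markers overlapped between the groups, with a mean difference of 0.0021 pooled and of 0.95 from control replicate 2. For *Ece1* the endothelial values were -0.25 and 0.89. Against the endocardial mean *Ace* differed by 0.085 (0.063 from control replicate 2) and *Ece1* by -0.16 (0.0013 from control replicate 2), both with overlap. The mean log2 value of the 12 fibroblast markers was itself 0.82 higher in the libraries labelled Hsp47-deleted. Relative to it, *Edn1* differed by 1.21 (0.47 from control replicate 2) and did not overlap. *Ace* differed by 0.022 and *Ece1* by -0.23, both with overlap. *Agtr1a* differed by -1.28 and *Ednra* by -0.96 (-1.15 and -0.55 from control replicate 2), both without overlap. The low genes *Npr3* (-1.28) and *Agt* (-0.63) did not overlap either. The share of all tested genes without overlap on this scale was not computed. *Postn*, a matricellular gene on the fibroblast list, adds to the mean of that list in the group labelled Hsp47-deleted and was the gene on it that was called (log2 fold change 4.41, limma, adjusted p = 0.0034). The differences relative to this list are therefore lower than they would be without *Postn*. They were not recomputed without it, so their signs and overlaps may depend on this gene. The 11 mural markers, cells in which *Ednra* and *Agtr1a* are known to be strong, summed to 318, 190 and 259 in the controls and to 210, 193 and 141 in the other group, led by *Rgs5*. Relative to the mural markers *Ednra* differed by -0.056 with overlap (0.45 from control replicate 2) and *Agtr1a* by -0.38 without overlap (-0.16 from control replicate 2). Against these markers *Edn1*, *Ace*, *Ece1* and *Npr2* differed by 2.11, 0.93, 0.68 and 0.92, all without overlap. From control replicate 2 these differences were 1.46, 1.13, 1.06 and 0.54. The remaining members overlapped. The share of these other cells in the differences of the 10 genes was not tested beyond these values.

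**Figure D4:**
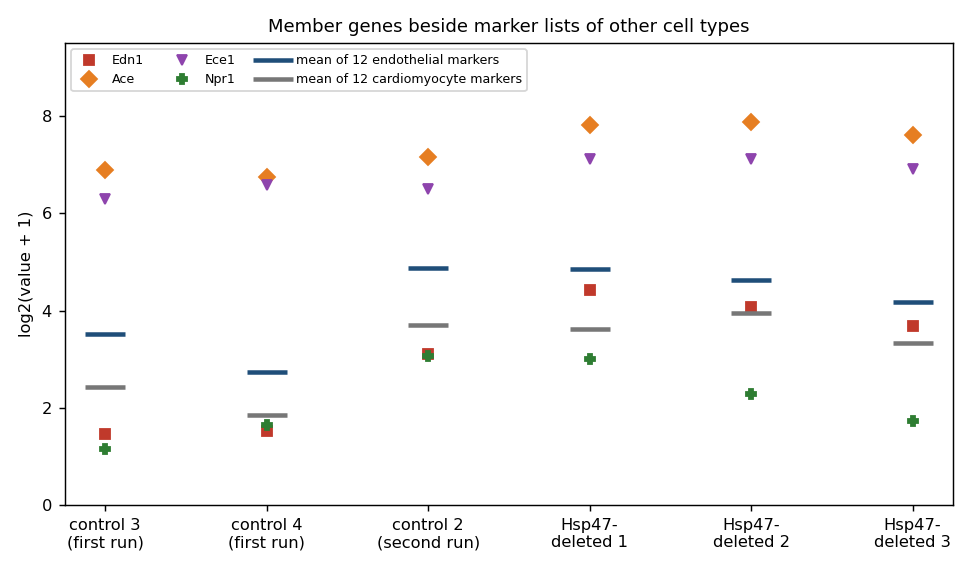
Log2(value + 1) of *Edn1*, *Ace*, *Ece1* and *Npr1* in each of the 6 libraries, with the mean of 12 endothelial markers (blue bars) and of 12 cardiomyocyte markers (grey bars). Both marker means are lowest in control replicate 4 and near the level of the libraries labelled Hsp47-deleted in control replicate 2, where *Edn1* is 3.12 and *Npr1* 3.06.

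Of the genes for the peptides that act on the 3 natriuretic receptors, *Nppa* passed the filter on low values and *Nppb* and *Nppc* did not. *Nppa*, which encodes atrial natriuretic peptide, was 2.81 and 2.82 in control replicates 3 and 4, 5.17 in control replicate 2, and 2.97, 2.45 and 2.34 in the libraries labelled Hsp47-deleted. Control replicate 2 stood apart from the other 5 libraries, and the pooled log2 fold change of -1.01 (limma, adjusted p = 0.453) was -0.23 when taken from the first-run controls alone. *Nppb*, which encodes brain natriuretic peptide, was listed at 0 in control replicates 3 and 4, was 1.34 in control replicate 2 and 0.98, 0.78 and 0.73 in the other group. *Nppc*, which encodes C-type natriuretic peptide, the ligand of the *Npr2* receptor, was 0.36, 0.62 and 0.51 in the controls and 0.84, 1.09 and 1.42 in the libraries labelled Hsp47-deleted. *Nppc* did not overlap between the groups and differed by 0.61 from control replicate 2. Without a filter on low values its log2 fold change was 0.62 (from 0.15 to 1.09, limma, adjusted p = 0.428).

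Around the 10 genes, 72 further genes of the same pathways were listed by role, of which 68 were in the table and 51 were tested. None of the 51 was called, and 5 were without control replicate 2, where 2768 of all 15109 tested genes were. An unadjusted limma p under 0.05 was reached by 6 in the higher direction and 0 in the lower (14.5% and 0.755% of all tested genes). The median log2 fold change of the 51 was 0.38 beside the 0.35 of all tested genes. All 3 libraries labelled Hsp47-deleted were above all controls for 11 of the 51 and below them for 1, against 18.3% and 1.5% of all tested genes. By these counts the pathway genes were near the share of all tested genes. Of 9 other angiotensin genes tested 0 passed, with a median of 0.29. Of 2 natriuretic genes tested, *Furin*, which encodes a convertase that can process natriuretic peptide precursors, passed, at 3.91, 4.14 and 3.94 in the controls and 4.71, 5.13 and 5.03 in the other group (log2 fold change 0.96, limma, adjusted p = 0.276). Of 13 genes of cGMP synthesis, effectors and breakdown, *Pde3a*, a phosphodiesterase that cGMP inhibits, passed, at 3.85, 4.00 and 4.09 against 4.62, 5.01 and 5.17 (0.95, limma, adjusted p = 0.282), and the median of the 13 was 0.17. Both *Furin* and *Pde3a* had tight controls, control replicate 2 included, and no overlap, and they differed from control replicate 2 by 1.02 and 0.84. By RT-PCR the paper reports induced *Furin* mRNA in Hsp47-deleted myofibroblasts, where it counts *Furin* among TGF-β signaling genes.

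Of 26 genes of Gq and arrestin signaling 4 passed an unadjusted p under 0.05, all higher, near the 14.5% of all tested genes, and the median was 0.49. *Adrbk1*, the receptor kinase GRK2 that desensitizes these receptors, was 2.40, 1.96 and 3.61 in the controls and 4.04, 4.68 and 4.61 in the other group (log2 fold change 1.79, limma, adjusted p = 0.252), and differed by 0.83 from control replicate 2. *Nfatc2*, a calcineurin-dependent transcription factor, was 2.70, 2.55 and 2.56 against 3.28, 3.98 and 3.51 (0.99, limma, adjusted p = 0.283), and differed by 1.03 from control replicate 2. *Gna11*, a Gq-class alpha subunit, had a log2 fold change of 1.20 (limma, adjusted p = 0.322) and *Rgs3*, a regulator that shortens G protein signals, of 1.83 (limma, adjusted p = 0.297), and both overlapped between the groups because control replicate 2 was high. From control replicate 2 alone *Gna11* differed by 0.17 and *Rgs3* by 0.50. After centring, 2 pathway genes passed in the higher direction (*Adrbk1* and *Rgs3*) and 2 in the lower (*Nppa* and *Rgs5*, a regulator of G protein signaling and mural marker), where 4.73% and 3.48% of all tested genes did. With sequencing run as a covariate 5 passed in the higher direction, *Furin*, *Nfatc2*, the protein kinase C genes *Prkca* and *Prkcd*, and *Rgs4*, and *Nppa* passed in the lower, with a log2 fold change of -2.58 (limma, adjusted p = 0.0888), where 5.46% and 1.27% of all tested genes passed. *Furin* and *Nfatc2* were thus the 2 genes that passed both as deposited and with the run covariate. These fits share the same libraries, and the covariate fit has control replicate 2 as the only control for the difference. *Rgs4*, *Prkca* and *Prkcd* were named after their values were seen. Each overlapped between the groups, with control replicate 2 the lowest of all libraries. *Prkca* was 6.65, 7.31 and 5.16 in control replicates 3, 4 and 2, against 6.12, 6.20 and 6.99 in the other group. The pooled log2 fold changes of *Rgs4*, *Prkca* and *Prkcd* were 0.55, 0.065 and 0.31. From the first-run controls they differed by 0.16, -0.54 and 0.021.

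**Figure D5:**
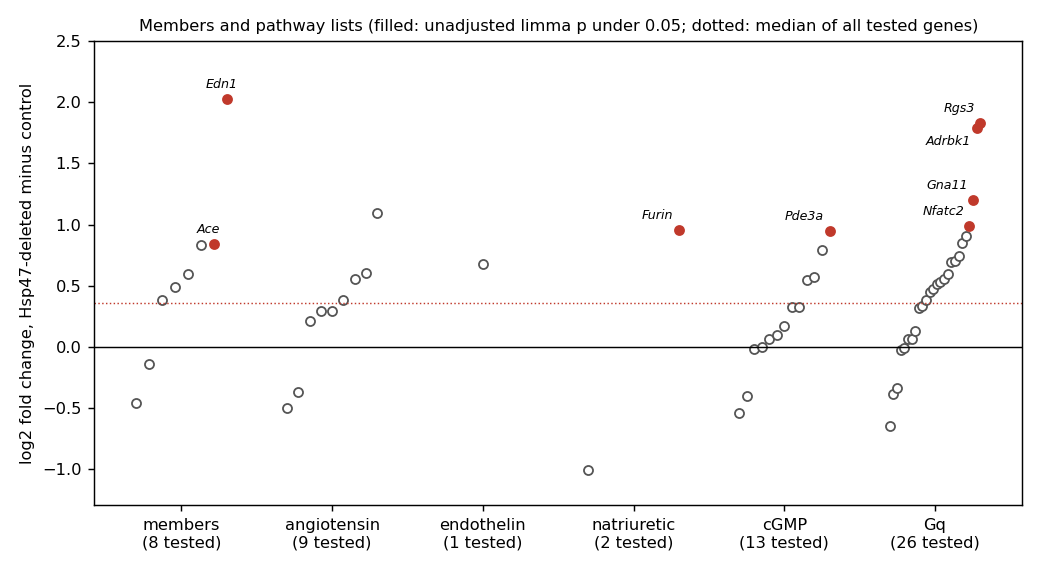
Log2 fold change (libraries labelled Hsp47-deleted minus control) of the 8 tested members of the set and of the tested genes of 5 pathway lists, each point 1 gene ordered by value within its list, filled and named where the unadjusted limma p was under 0.05. The dotted line is the median of all tested genes (0.35), and *Edn1* at 2.03 is the highest point, with no filled point below 0.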

How the data were processed

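RNA from sorted EGFP+ cells was amplified (Ovation RNA-Seq System v2), and libraries were made with Nextera XT. The authors deposited log2(value + 1) per gene and library, without naming the linear unit. The submitters' processing notes list kallisto and mm10, and the paper names AltAnalyze. The authors' columns of group means, fold and p-values were not used. All 6 library columns were matched to the labels. The values are not counts and the depth is unknown.

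The log2 values were tested as deposited (pseudocount 1) with limma 3.58.1 in R 4.3.3, with a mean-variance trend and no covariate. Genes with a linear mean of at least 1 were kept (15109), 13878 were left out, and p-values were BH-adjusted over all genes tested. Ratios were compared by exact permutation (scipy 1.17.1). The fit was tested on simulated data. Alternatives were no filter on low values, a stricter filter (mean 5), a pseudocount of 0.1 or 5, centring, quantile normalization, sequencing run as a covariate, the second run alone, the replicate number as a block, no trend, robust estimation (statmod 1.5.0) and leaving out each library. Centring together with the run covariate was added after the data were seen.

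All members, *Serpinh1*, *Postn*, *Nppa*, *Nppb*, *Nppc*, *Agtr1b*, *Agtr2*, pathway genes at an unadjusted p under 0.05 and the highest gene of marker lists were to be named. *Ece2*, *Gm12473*, *Ptprc*, *Cldn5* and the pathway genes named under other settings were added after their values were seen. Members and lists were chosen with earlier results of these data known. Positions are from GENCODE release M21 (GRCm38), transcripts were aligned with minimap2 2.31-r1302, and promoter sequences are from RefSeq (GRCm38.p6). The labels and the methods differ on tamoxifen doses, and those of the labels are given.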

Additional observations from a re-analysis of the deposited data

How the results depend on the processing

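Control replicate 2 decided most. Without it 2768 genes were called in place of 37 (from 8 to 2768 over the 6 libraries left out in turn), a comparison in which the run cannot be told apart from the label. Then 3 of the 8 tested members were called (range from 0 to 3): *Edn1* (log2 fold change 2.57, limma, adjusted p = 0.00505), *Ace* (0.95, limma, adjusted p = 0.0369) and *Npr2* (1.23, limma, adjusted p = 0.0410). Members at an unadjusted p under 0.05 numbered 2, with a range from 1 to 4 when a library was left out. Pathway genes at that level numbered 6, with a range from 3 to 17, and those called from 0 to 5, the 5 being *Adrbk1*, *Gna11*, *Gna12*, *Rgs3* and *Vasp* without control replicate 2.

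The 37 called genes became 16 with a pseudocount of 0.1, 18 with centring and 17 with quantile normalization. Members at an unadjusted p under 0.05 became 0 with the run covariate and 0 with centring and the run covariate together. Pathway genes at that level became 11 without a filter, 3 with quantile normalization and 2 with centring and the run covariate together, where 1 was called, *Nppa* (-2.83, limma, adjusted p = 0.0434). *Npr1* turned negative with centring (-0.035), quantile normalization (-0.033) and centring with the run covariate (-0.97). It was -0.72 with the run covariate and with the second run alone, which are the same difference. With a library left out *Npr1* ranged from -0.019 to 0.93. *Npr2* was -0.21 with centring and the run covariate. *Ednra* ranged from -0.29 to 0.050 with a library left out, positive (0.050) without Hsp47-deleted replicate 3. Over all alternatives *Edn1* stayed between 0.71 and 2.57, *Ace* between 0.37 and 0.95, *Ece1* between 0.18 and 0.66, *Ednrb* between 0.055 and 0.79 and *Agtr1a* between -0.97 and -0.16. Over their 11 alternatives the untested *Agt* ran from -0.24 to 0.89 and *Npr3* from -0.88 to -0.15. The 4 ratios, recomputed with other pseudocounts, with the second run alone and with each library left out, kept their direction. The ratio of *Ednra* to *Ednrb* ran from -1.04 to -0.16 and that of *Npr1* to *Npr2* from -0.73 (without Hsp47-deleted replicate 1) to -0.27 (without Hsp47-deleted replicate 2) when a library was left out, and -0.30 without control replicate 2.

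The groups share the replicate numbers 2 and 3, but no label ties same-numbered mice, and the deviations of same-numbered libraries correlated at 0.156 and 0.228, against 0.382 for control replicate 2 with Hsp47-deleted replicate 1. With the replicate block 0 genes were called, 1 member had an unadjusted p under 0.05, and *Npr1* was -0.11. Without read counts, the precision of low genes such as *Agt*, *Npr3* and *Agtr1a* cannot be stated.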
